A study of Homo sapiens with 4 samples.

Results

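The 10 genes described here encode the main heat shock chaperones of the cytosol (HSP90AA1, HSP90AB1, HSPA8, HSPA4, HSPH1, DNAJA1 and HSPB1) and of the mitochondrial matrix (HSPD1, HSPE1 and HSPA9). They were chosen by symbol, and all 10 were among the 16174 genes of the deposited table. Each had a value above 0 in every library. Expression was read as poly(A) RNA by nanopore sequencing of amplified cDNA in H9 cells, an established line of human embryonic stem cells kept in the primed state. All 4 libraries came from cells with a doxycycline-inducible dCas9-BFP-KRAB transgene, a Cas9 that binds without cutting and carries a silencing domain, so the controls carried and induced the repressor too. One arm held pooled guides against the long non-coding RNA gene SNHG26, and the other held non-targeting guides. Cells were puromycin-selected after transfection, the labels name no clone, and doxycycline lasted 2 or 3 days before RNA was extracted. Each arm has 2 libraries, 1 from each day. Nothing in the labels says which libraries came from separate cultures, so p-values measure only the spread between these libraries.

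Chaperones bind unfolded stretches of other proteins and let them fold, or hold them until they can. HSP70 proteins take up clients with the help of J-domain proteins, release them with the help of nucleotide exchange factors, and pass some of them on to HSP90, which finishes kinases, hormone receptors and other signalling proteins. In the mitochondrial matrix an HSP70 pulls in imported chains and a chaperonin barrel with a lid folds them. When unfolded protein accumulates, the transcription factor HSF1 binds heat shock elements, inverted repeats of GAA units, and raises many of these genes. Pluripotent stem cells are known for high levels of several chaperones in the absence of stress.

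As background to the whole table, the libraries held at most 947338 to 1220265 reads, if all reads counted against whole gene spans. The targeted gene SNHG26 was at 0 and 0.933 TPM with its guides on day 2 and day 3, and at 2.98 and 4.03 TPM with control guides (log2 change -1.69, SE 0.58, limma adjusted p 0.935). On the full listed span these SNHG26 values are at most 0 and 8.56 reads with its guides and 22.2 and 35.9 reads with control guides. On the median annotated transcript span they are an estimated 0 and 0.72 reads against 1.87 and 3.03 reads. At these low levels the change depended on the pseudocount, with -3.47 at 0.1 and -0.64 at 5, and ran from -2.16 to -1.21 with each library left out. TPM is a length-corrected expression level scaled within each library, and the listed genes sum to between 953827 and 958319 TPM. Of 8 primed stem cell markers, 7 were in the table and all 7 had values, led by POU5F1 at a mean of 1126 TPM. Their summed level was 1475 and 1594 TPM with SNHG26 guides and 1584 and 1627 TPM with control guides. Of 14 markers of other cell types, 3 were in the table, with summed levels from 2.98 to 6.19 TPM, and EOMES was at 0 in every library. The 13 mitochondrially encoded mRNAs summed to 73557 and 69894 TPM with SNHG26 guides and to 85652 and 89017 TPM with control guides. Their part in the results below was not tested.

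The 10 chaperone genes took 0.430% and 0.443% of the TPM listed with SNHG26 guides and 0.401% and 0.361% with control guides, on day 2 and day 3. HSP90AB1 was the highest of them, with a mean over the 4 libraries of 1154 ± 52.6 TPM (SD, n = 4), rank 120 of the 16174 genes. HSPA8 (776 ± 220.1), HSPB1 (685 ± 115) and HSPE1 (578 ± 58.7 TPM, SD, n = 4) followed, and the ranges of neighbours in this order overlapped. Next came HSP90AA1 at 399 ± 45.3 TPM and HSPD1 at 161 ± 22.01 TPM (SD, n = 4), each set apart from the genes on both sides. DNAJA1 (53.0 ± 14.0), HSPA4 (47.8 ± 1.75) and HSPA9 (39.0 ± 8.48 TPM, SD, n = 4) overlapped again, and HSPH1 was lowest at 12.2 ± 7.46 TPM. The listed length is the genomic span with introns, and dividing by it would lower long genes such as HSPA4 (54437 bases) against short ones such as HSPB1 (3141 bases). The members' values were not whole reads on that span, so the length that divided them is not known. The order is one of TPM and not of molecules.

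**Figure D1:**
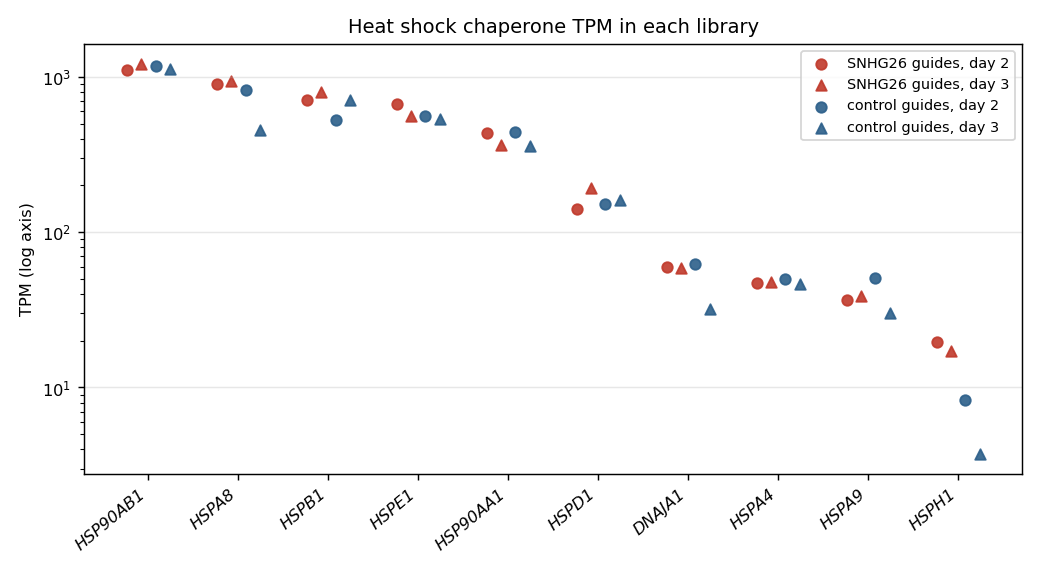
TPM of each chaperone gene (log axis) in each of the 4 libraries, ordered by mean level, with red for SNHG26 guides, blue for control guides, circles for day 2 and triangles for day 3. HSP90AB1 stays between 1103 and 1217 TPM, and HSPH1 spans 3.72 to 19.7 TPM with both red points above both blue points.

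Some members were far steadier across libraries than others. The highest library exceeded the lowest by a ratio of 1.09 for HSPA4 and 1.10 for HSP90AB1. The ratio was 1.23 for HSP90AA1, 1.24 for HSPE1, 1.37 for HSPD1, 1.52 for HSPB1 and 1.67 for HSPA9. It reached 1.93 for DNAJA1, 2.06 for HSPA8 and 5.30 for HSPH1. Upper bounds of reads per library were 340 to 401 for HSPA4 and 1132 to 1439 for HSP90AB1. They were 98.7 to 138 for HSPA9, 387 to 821 for HSPA8 and 15.2 to 74.0 for HSPH1. The part of read sampling in these ratios was not tested. The lowest library was the control library of day 3 for 7 of the 10 members (HSP90AA1, HSPA8, HSPA4, HSPH1, DNAJA1, HSPE1 and HSPA9), while it was the lowest of the 4 for 25.5% of the 8274 genes tested. It was the highest library for 0 of the 10, and for 22.4% of the genes tested. The margin to the next lowest was narrow for HSP90AA1 (357 against 362 TPM), HSPA4 (46.1 against 46.8 TPM) and HSPE1 (534 against 556 TPM). Median ratio size factors, estimates of library scale, were 0.975 for the control library of day 3 and 1.04 for the SNHG26 library of day 3. The lowest library for HSP90AA1, HSPA4 and HSPE1 therefore depends on the scaling.

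**Figure D2:**
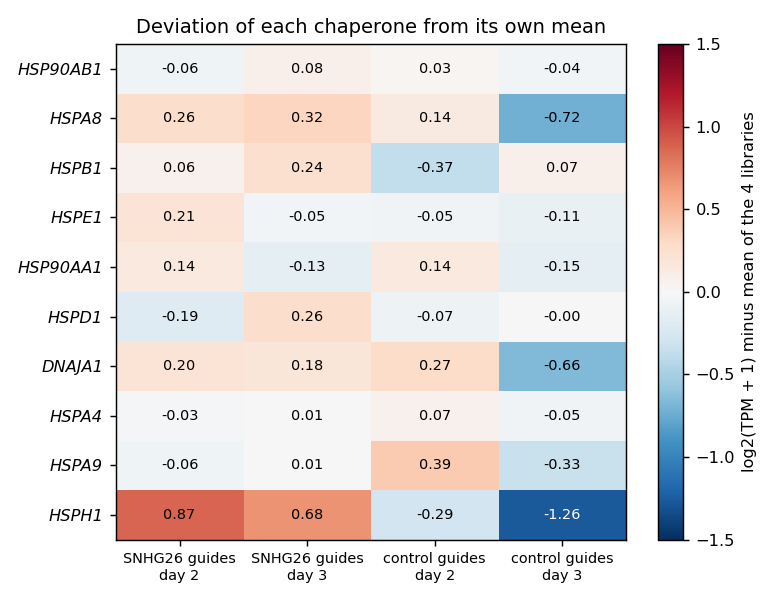
Deviation of log2(TPM + 1) of each chaperone gene from its own mean, by library (rows ordered by mean TPM, red above and blue below the mean). The control library of day 3 holds the lowest values, -1.26 for HSPH1, -0.72 for HSPA8 and -0.66 for DNAJA1, while HSP90AB1 and HSPA4 stay within 0.08 of their mean everywhere.

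The question the design puts to these genes is whether repressing SNHG26 changed them. The test took the 8274 genes whose 4 libraries averaged 1 TPM or more, all 10 members among them, and was run on log2(TPM + 1) with limma, which pools the spread of all genes. At an adjusted p of 0.05, 0 of the 10 members and 0% of all genes passed. At an unadjusted p of 0.05 it was 1 of the 10, HSPH1, and 4.07% of all genes. The members' log2 changes had a median of 0.12, against 0.04 over all genes tested. Of the 10 members, 8 were above 0, against 53.3% of all genes. The 8 include HSP90AA1 and HSP90AB1, each at 0.01, which fell below 0 with quantile normalization or median ratio scaling. Both SNHG26 libraries were above both control libraries for HSPA8, HSPH1 and HSPE1, which is 3 of 10 against 16.1% of all genes tested. That share was 31.1% among the 351 genes averaging 300 TPM or more, and 2 of the 5 members at that level had it. HSPE1 entered both counts by 558 against 556 TPM at the closest, so its place in them depends on the scaling. Without the control library of day 3, a choice made after seeing the data, the log2 change was above 0 for 5 of 10 members (51.1% of all genes) and both SNHG26 libraries were above the remaining control library for 4 of 10 (30.2%). No member had both SNHG26 libraries below both control libraries, against 13.2% of genes. The summed level of the 10 was 4109 and 4223 TPM with SNHG26 guides and 3839 and 3449 TPM with control guides, with an exact two-sided permutation p of 0.33, the smallest that 2 libraries against 2 allow.

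**Figure D3:**
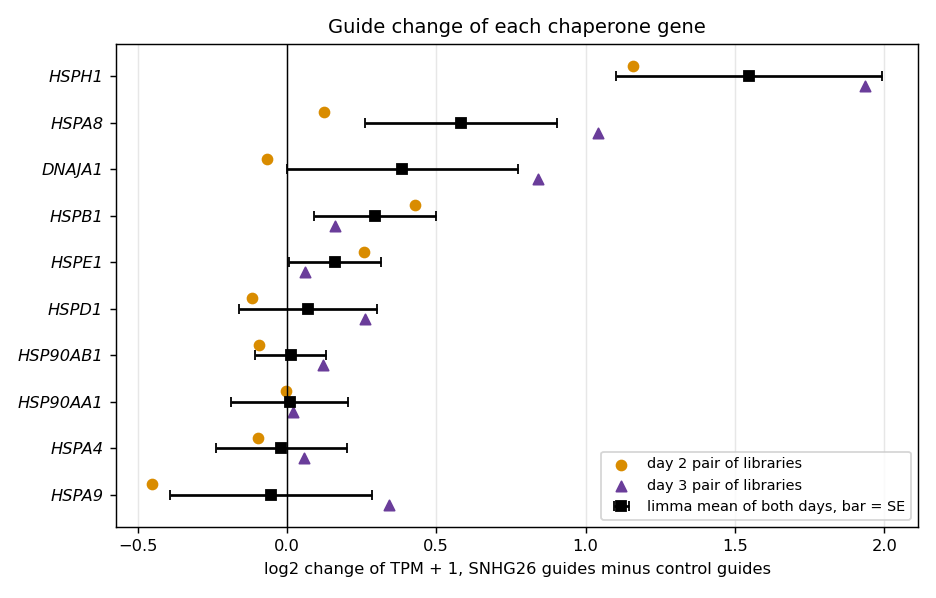
Log2 change of TPM + 1 between SNHG26 and control guides for each chaperone gene, with the limma mean of both days (square, bar is 1 SE), the day 2 pair (circle) and the day 3 pair (triangle). HSPH1 stands farthest from 0 on both days (1.16 and 1.94), and 6 of the 10 genes lie on opposite sides of 0 on the 2 days.

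The HSP90 pair, the cytosolic chaperones that mature signalling proteins, differed little between the arms. HSP90AB1, the form made constitutively (chromosome 6, 44246166 to 44253888, plus strand, GRCh38), was at 1103 TPM on day 2 and 1217 TPM on day 3 with SNHG26 guides. With control guides it was at 1177 and 1120 TPM. The arms overlapped, and the log2 change was 0.01 (SE 0.12). HSP90AA1, the more stress-responsive form (chromosome 14, 102080742 to 102139699, minus strand), was at 438 and 362 TPM with SNHG26 guides and at 438 and 357 TPM with control guides on day 2 and day 3. The arms were almost level on each day, with a log2 change of 0.01 (SE 0.20), and both day 3 libraries were below both day 2 libraries. The ratio of HSP90AB1 to HSP90AA1 ran from 2.52 to 3.36 over the libraries and had a mean of 2.94 with SNHG26 guides and 2.91 with control guides. Both signs turned with quantile normalization or median ratio scaling, and both changes stayed under 0.1 in size.

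HSPA8, the constitutive cytosolic HSP70 (chromosome 11, 123057489 to 123063230, minus strand), was at 894 and 934 TPM with SNHG26 guides on day 2 and day 3. With control guides it was at 821 TPM on day 2 and 453 TPM on day 3. The SNHG26 libraries were close to each other and above both control libraries, and the control library of day 3 stood far below the other 3. The means were 914 ± 28.0 and 637 ± 260.0 TPM (SD, n = 2), with a log2 change of 0.58 (SE 0.32, limma adjusted p 0.935). The difference was 0.12 on day 2 and 1.04 on day 3. Without the control library of day 3 the log2 change was 0.16, and without that of day 2 it was 1.01 (limma adjusted p 0.318), the lone control library being assumed to vary like the others. In a bulk library, fewer cells of a type and less RNA per cell cannot be told apart.

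DNAJA1, a J-domain protein that brings clients to HSP70 and stimulates its ATPase (chromosome 9, 33025273 to 33039907, plus strand), was at 59.2 and 58.4 TPM with SNHG26 guides and at 62.1 and 32.1 TPM with control guides. Only the control library of day 3 was apart, as for HSPA8, and the arms overlapped. Its log2 change was 0.39 (SE 0.39), with -0.07 on day 2 and 0.84 on day 3, and -0.078 without that library. The ratio of DNAJA1 to HSPA8 TPM was 0.0662 and 0.0625 with SNHG26 guides and 0.0757 and 0.0709 with control guides. The range was narrow, with both control ratios above both SNHG26 ratios.

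HSPH1, a member of the HSP110 family that exchanges the nucleotide of HSP70 and helps take aggregates apart (chromosome 13, 31134973 to 31162388, minus strand), gave the largest difference among the 10. It was at 19.7 TPM on day 2 and 17.1 TPM on day 3 with SNHG26 guides, and at 8.26 and 3.72 TPM with control guides. All values with SNHG26 guides were above all control values, and the arm means, 18.4 ± 1.87 and 5.99 ± 3.22 TPM (SD, n = 2), had a ratio of 3.07. The log2 change was 1.55 (SE 0.44), and the day 2 and day 3 pairs gave 1.16 and 1.94. The limma adjusted p was 0.935 (unadjusted 0.024, rank 199 of 8274), so the difference did not pass the threshold. The log2 change ran from 1.06 to 2.04 when each library was left out in turn. At most 74.0 and 71.6 reads lay behind the SNHG26 values and at most 28.2 and 15.2 behind the control values. The HSPH1 values were not whole reads on the gene span, so its reads are known only as upper bounds.

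HSPA4, a further HSP110 of the cytosol (chromosome 5, 133052013 to 133106449, plus strand), was at 46.8 and 48.1 TPM with SNHG26 guides and at 50.1 and 46.1 TPM with control guides. The arms overlapped within a narrow range, and the log2 change was -0.02 (SE 0.22). HSPH1 over HSPA4 was 0.420 and 0.355 with SNHG26 guides and 0.165 and 0.0805 with control guides.

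HSPB1, a small heat shock protein that holds unfolding clients without using ATP (chromosome 7, 76302673 to 76305813, plus strand), was at 706 and 798 TPM with SNHG26 guides and at 525 and 713 TPM with control guides. It was higher with SNHG26 guides on each day, but the arms overlapped, since the day 3 control value exceeded the day 2 SNHG26 value. The log2 change was 0.30 (SE 0.20, limma adjusted p 0.935), with 0.075 without the control library of day 2 and 0.52 without that of day 3.

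HSPD1 (HSP60), the barrel of the matrix chaperonin (chromosome 2, 197486584 to 197516737, minus strand), was at 140.3 and 192 TPM with SNHG26 guides and at 152 and 159.9 TPM with control guides. HSPE1 (HSP10), its lid (197500140 to 197503449, plus strand), was at 665 and 558 TPM with SNHG26 guides and at 556 and 534 TPM with control guides. For HSPD1 the arms overlapped, and for HSPE1 the SNHG26 libraries were just above the controls, by 558 against 556 TPM at the closest. The log2 changes were 0.07 (SE 0.23) and 0.16 (SE 0.15), and that of HSPE1 was 0.034 without the SNHG26 library of day 2 and 0.29 without that of day 3. The pair is transcribed in opposite directions from neighbouring starts, and as listed the span of HSPD1 covers all 3310 bases of HSPE1 on the other strand. Strand use in counting is not given in the sources used here, which leaves the split of reads between HSPD1 and HSPE1 uncertain. HSPE1 over HSPD1 was 4.74 and 2.91 with SNHG26 guides and 3.65 and 3.34 with control guides, with no order by arm.

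HSPA9 (mortalin), the HSP70 of the matrix that drives protein import (chromosome 5, 138553756 to 138575675, minus strand), was at 36.7 and 38.6 TPM with SNHG26 guides and at 50.6 and 30.2 TPM with control guides. The control libraries were the highest and the lowest of the 4. The log2 change was -0.05 (SE 0.34), with -0.45 on day 2 and 0.34 on day 3.

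Limma's test of whether the guide effect was unlike on the 2 days called 0 of the 10 members and 0.0967% of all genes. At an unadjusted p of 0.05 it had 0 of the 10 and 3.52% of all genes (1.79% higher and 1.73% lower on day 3). The smallest adjusted p among members was 0.961. On both days 4 of 10 members were above 0 (HSPA8, HSPH1, HSPE1 and HSPB1), against 24.8% of all genes. The median change of the 10 was -0.035 on day 2 and 0.21 on day 3.

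Between day 2 and day 3, 0 of 10 members passed (0.0363% of all genes did) and 0 had an unadjusted p under 0.05 in limma (6.61% of all genes, 3.44% higher and 3.17% lower). On day 3, 3 of 10 were higher in mean, against 50.7% of all genes. Both day 3 libraries were above both day 2 libraries for HSPD1 (log2 change 0.26, SE 0.17) and HSPB1 (0.31, SE 0.19), against 17.1% of all genes. Both were below for HSP90AA1 (-0.28, SE 0.12, limma adjusted p 0.760) and DNAJA1 (-0.48, SE 0.35), against 18.4%. Within the control arm, the largest differences between the days, picked by size, were -0.97 (HSPH1), -0.93 (DNAJA1), -0.86 (HSPA8) and -0.72 (HSPA9), where the SNHG26 arm had -0.20, -0.02, 0.06 and 0.07. The other control differences were 0.44 (HSPB1), 0.07 (HSPD1), -0.06 (HSPE1), -0.07 (HSP90AB1), -0.12 (HSPA4) and -0.29 (HSP90AA1). The median change of all 10 was -0.22, against 0.01 over all genes.

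Promoter sequence was examined because HSF1 acts through heat shock elements. RefSeq windows (GRCh38.p14, 250 bases before to 50 after each start) were matched by symbol, and all 10 members had at least 1, with 14 windows in all. The letters searched were 3 alternating units (GAA, TTC and GAA, with 2 bases of any kind, NN, between neighbours) and 2 units, GAANNTTC or TTCNNGAA, on both strands, the 3-unit match containing both 2-unit ones. A 3-unit match stood in a window of 5 of the 10 members, HSP90AA1, HSP90AB1, HSPA8, DNAJA1 and HSPD1, while 0.608% of the 27305 genes with windows have one (0.490% of the 35116 windows). A 2-unit match stood in 7 of 10, HSPB1 and HSPA9 added, against 16.2% of all genes for either form (13.5% of windows). Among the heat-inducible genes described below, CHORDC1, HSPA6 and SERPINH1 had a 3-unit match. DNAJB1, a classic HSF1 target, had none in any of its windows, and HSPA1A, HSPA1B and BAG3 had none. A window without this exact match therefore does not show that HSF1 leaves the gene alone. The 3-unit matches of the members are shown since HSF1 is known to read such letters. They were as follows, read in the direction of the gene and numbered from the start, with negative numbers before it.
DNAJA1, bases 4 to 16: GAACTTTCCAGAA
HSPA8, bases -230 to -218: GAAAGTTCCAGAA
HSPA8, bases -55 to -43: TTCTGGAAGGTTC
HSP90AA1, bases -88 to -76: TTCCGGAAGGTTC
HSP90AB1, bases -165 to -153: TTCTGGAAGATTC
HSP90AB1, bases -112 to -100: TTCTGGAAGCTTC
HSPD1, bases -245 to -233, with a further match from -240 to -228: TTCTGGAAAGTTC
HSP90AA1 and HSPD1 had 2 windows each and HSP90AB1 had 3, and the matches lay in 1 of them (the downstream start for all 3 genes).

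The full windows of HSPA8 and HSPH1 are given because these members had the largest differences between the guide arms and differ in these letters. Capitals mark the 3-unit matches, and HSPH1 has neither these nor a 2-unit match in its window, which says only that the letters are not there.
HSPA8, chr11:123062087-123062386, minus strand: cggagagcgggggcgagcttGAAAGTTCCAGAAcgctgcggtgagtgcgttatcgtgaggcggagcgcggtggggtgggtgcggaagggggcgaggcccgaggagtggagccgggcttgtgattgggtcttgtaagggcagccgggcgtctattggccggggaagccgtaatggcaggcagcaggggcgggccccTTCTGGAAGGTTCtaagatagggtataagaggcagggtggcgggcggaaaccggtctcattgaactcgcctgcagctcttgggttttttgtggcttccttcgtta
HSPH1, chr13:31162339-31162638, minus strand: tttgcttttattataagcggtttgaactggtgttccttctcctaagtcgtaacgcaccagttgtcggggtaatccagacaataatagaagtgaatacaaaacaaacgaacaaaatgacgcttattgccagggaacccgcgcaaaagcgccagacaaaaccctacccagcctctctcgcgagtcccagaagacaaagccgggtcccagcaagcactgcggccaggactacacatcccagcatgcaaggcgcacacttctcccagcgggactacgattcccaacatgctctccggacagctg
Members with a 3-unit match had guide changes of 0.58 (HSPA8), 0.39 (DNAJA1), 0.07 (HSPD1) and 0.01 (HSP90AB1 and HSP90AA1). Members without one in their own windows had 1.55 (HSPH1), 0.30 (HSPB1), 0.16 (HSPE1), -0.02 (HSPA4) and -0.05 (HSPA9). HSPE1 is without one only by the edge of its window. The HSPD1 window with the match ends at 197500090 and the HSPE1 window begins at 197500129, so the HSPD1 match lies upstream of HSPE1 as well. The ranges overlapped, and whether the match bears on the guide change was not tested.

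**Figure D4:**
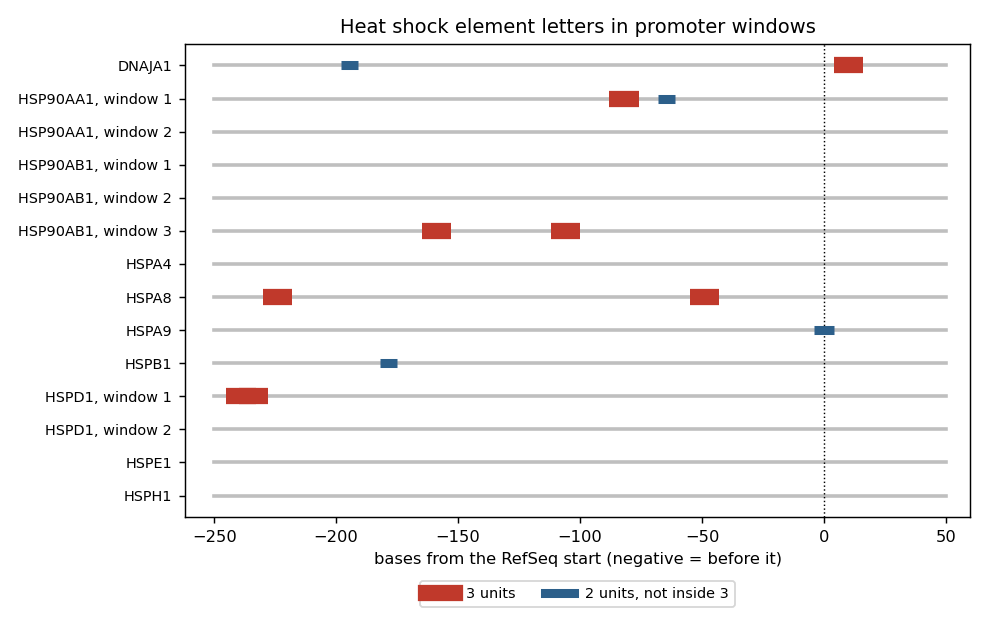
Positions of heat shock element letters in the 14 RefSeq promoter windows of the 10 chaperone genes, in bases from the start (red for 3 units, blue for 2 units outside a 3-unit match). Matches stand in 1 of the 2 or 3 windows of HSP90AA1, HSP90AB1 and HSPD1, and none in those of HSPA4, HSPE1 and HSPH1.

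The wider heat shock network was described from 4 lists. Of 14 genes for heat shock factors and heat-inducible chaperones, 12 were in the table and 10 were tested. Of these, 0 passed in limma, and 1 each way had an unadjusted p under 0.05, against 2.02% higher and 2.05% lower among all genes. Their median log2 change was 0.29 (all genes 0.04), with 0.0013 on day 2 and 0.59 on day 3, and 7 of 10 were above 0. Both SNHG26 libraries were above both control libraries for 4 of the 10 tested (DNAJB1, BAG3, CHORDC1 and HSF1), against 16.1% of all genes. Both were below for 3 of the 10 (SERPINH1, HSPA2 and HSPB8), against 13.2%. DNAJB1, the J-domain protein whose gene is a classic HSF1 target, was at 50.9 and 31.1 TPM with SNHG26 guides and at 13.3 and 17.2 TPM with control guides. All SNHG26 values lay above all control values, as for HSPH1, with a log2 change of 1.34 (SE 0.36, limma adjusted p 0.935, unadjusted 0.0198). SERPINH1, the collagen chaperone of the endoplasmic reticulum, had a log2 change of -0.14 (SE 0.18), and HSBP1, a small protein that binds HSF1, had 0.24 (SE 0.32).

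Other genes of that list were picked after their values were seen. BAG3, an HSP70 exchange factor for aggregated clients, was at 4.69 and 3.95 TPM with SNHG26 guides and at 1.82 and 2.03 TPM with control guides, which are 17, 16, 6 and 8 whole reads. Its groups did not overlap, with a log2 change of 0.86 (SE 0.37, limma adjusted p 0.935). The stress-inducible HSP70 genes HSPA1A and HSPA1B, nearly identical in sequence so that reads could be split between them, had log2 changes of 0.10 (SE 0.47) and 0.42 (SE 0.35), on at most 7 reads in any library. HSPA2, an HSP70 known from the testis, was lower in both SNHG26 libraries, at 11.7 and 13.1 TPM against 22.5 and 24.2 TPM (log2 change -0.87, SE 0.27, limma adjusted p 0.935). HSPB8 was lower in both as well, at 0.922 and 0.413 TPM against 2.03 and 1.70 TPM (log2 change -0.80, SE 0.53). These HSPB8 values are at most 6.74 and 3.37 reads against 13.5 and 13.5 reads. HSF1 itself was at 1.58 and 1.41 TPM against 1.39 and 0.581 TPM (log2 change 0.36, SE 0.54). The HSF1 values are at most 5.00 and 5.01 reads against 4.00 and 2.00 reads, so its order by arm rests on very few reads.

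Of 14 HSP90 co-chaperones, 12 were tested, 0 passed in limma and 0 had an unadjusted p under 0.05 (4.07% of all genes). Of the 12, 11 were above 0 (53.3% of all genes), with a median of 0.17 against 0.04. The median was 0.03 on day 2 and 0.31 on day 3, and 4 of the 12 were above 0 on both days (24.8% of all genes). Both SNHG26 libraries were above both control libraries for 2 of the 12 (16.1% of all genes). The 3 highest were CDC37, which brings kinases to HSP90 (log2 change 0.14, SE 0.29), PTGES3 (p23), which holds its closed state (0.20, SE 0.21), and AHSA1, which stimulates its ATPase (0.03, SE 0.23). Of 23 HSP70 co-chaperones, 17 were tested, 0 passed in limma and 1 had an unadjusted p under 0.05 (4.07% of all genes). Of the 17, 9 were above 0 (53.3% of all genes), with a median of 0.05 against 0.04. Their 3 highest were BAG6 (-0.37, SE 0.46), DNAJA2 (-0.12, SE 0.32), the close relative of DNAJA1, and DNAJC9 (0.40, SE 0.43), a chaperone of histones. The only HSP70 co-chaperone with an unadjusted p under 0.05 was DNAJB2, at 6.76 and 5.84 TPM against 1.06 and 1.78 TPM, on at most 7.00 and 6.76 against 1.00 and 2.00 reads.

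Of 16 mitochondrial chaperones and proteases, 12 were tested, 0 passed in limma and 0 had an unadjusted p under 0.05. The share of all genes at that p was 4.07%. The median log2 change was -0.048 against 0.04 over all genes, with 5 of 12 above 0 against 53.3%. DNAJC19, a J-domain protein of the import motor in which HSPA9 works, was at 181 and 172 TPM with SNHG26 guides and at 148 and 157 TPM with control guides (log2 change 0.21, SE 0.17). The protease subunit CLPP had 0.02 (SE 0.29), and TRAP1, the HSP90 of mitochondria, had -0.09 (SE 0.41).

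**Figure D5:**
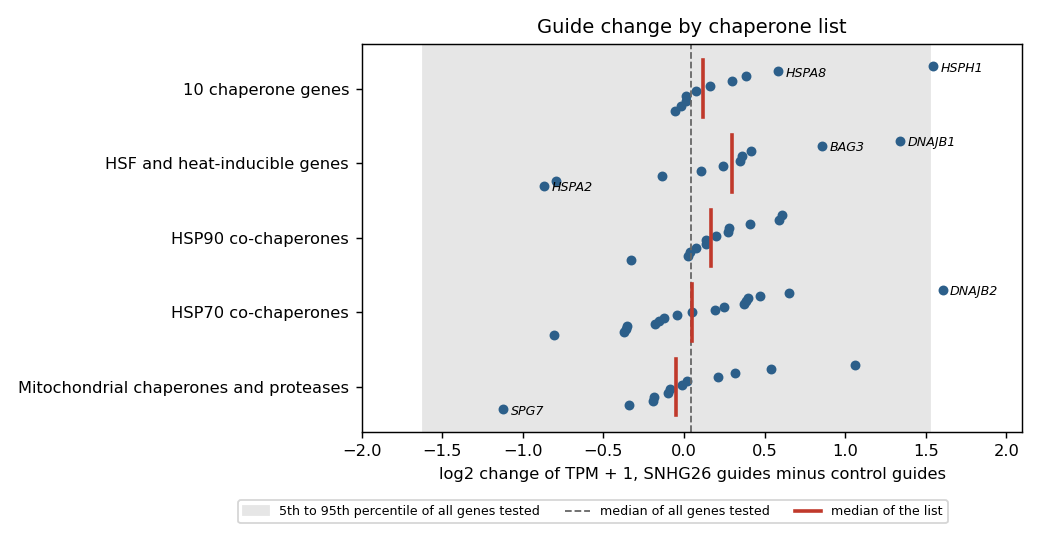
Log2 change of TPM + 1 between SNHG26 and control guides for the tested genes of 5 lists (points), with the list median in red, the median of all 8274 genes dashed and their 5th to 95th percentile in grey. HSPH1 at 1.55 and DNAJB2 at 1.61 lie just outside the grey range of -1.62 to 1.53, and DNAJB1 at 1.34 lies inside it.

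Pseudogene copies and readthrough genes can share reads with the members. The table held 14 pseudogenes or readthrough genes of the 10 with a value in at least 1 library. HSP90AA2P had 14 and 19 whole reads with SNHG26 guides and 11 and 17 with control guides, and HSP90AB3P had 10 and 17 against 11 and 16. HSPD1P1 followed at 9 and 6 against 5 and 7, and each of the other 11 had at most 3 reads in a library. Their arms overlapped except for DNAJA1P3, with 1 read in each SNHG26 library and 0 in the others. Inside introns of HSPA8 lie small nucleolar RNAs, of which SNORD14D had 1 read in each SNHG26 library and 0 in both control libraries (limma adjusted p 0.0917, not past the threshold), and SNORD14E had 1 and 0 against 2 and 1.

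The average centred log2(TPM + 1) profile of the 10 members was 0.14, 0.16, 0.03 and -0.33. The order is SNHG26 day 2, SNHG26 day 3, control day 2, control day 3. HSPH1, at 0.87, 0.68, -0.29 and -1.26, weighs heavily on this average, and the profiles of single members differ from it. By the smallest distance over the 4 libraries, 3 of the 1138 candidates (non-members averaging 50 TPM or more) came closest to the average profile. They were PSMB5 (distance 0.0181), a proteasome subunit, LSM10 (0.0479), a protein of histone mRNA processing, and RPL22L1 (0.0722), a ribosomal protein paralogue. PSMB5 was at 263, 264, 239 and 187 TPM in that order.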

How the data were processed

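Gene-level TPM values were deposited by the authors in 1 table, with 1 column per library and no counts. Per the submitters' processing notes, minimap2 2.24-r1122 and GRCh38 were used. The counting tool, annotation and filters are not given in the sources used here. An oligo-dT primer and PCR made the cDNA, per the labels' protocols, and as no molecular identifiers are described, several reads may come from 1 molecule.

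The deposited Length column is the gene span, from start to end with introns. TPM times span took 1 value most often in each library, which was read as 1 read, worth 0.729, 0.653, 0.803 and 0.672 TPM on a span of 10 kb (SNHG26 day 2 and day 3, control day 2 and day 3). On this unit, 20.6% of the 13840 genes above 0 somewhere had whole reads in all libraries, within 0.0001 read. For the others, members included, reads on the full span are upper bounds.

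Libraries were grouped by the guides in the labels. The tested scale was log2(TPM + 1), on which low genes show smaller changes, and tests were run with limma 3.58.1 in R 4.3.3 (eBayes with a mean-variance trend, no day term, Benjamini-Hochberg adjustment over 8274 genes, threshold 0.05). Every mean ± SD within an arm has n = 2 and includes any effect of the day. Named genes are the members, the 3 highest of each list, pseudogenes and readthroughs found by symbol, and genes stated as picked from their values. The members and lists were chosen with earlier results of these data known. Promoter windows came from RefSeq, and the 4 snoRNAs, 2 of them in the table, were fixed by name.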

Additional observations from a re-analysis of the deposited data

How the results depend on the processing

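The alternatives were a pseudocount of 0.1 or 5, a filter at 5 TPM or none, median ratio scaling, quantile normalization, a replicate block, eBayes with no trend, and each library left out. Over these, 0 of 120 pairs of a member and an alternative passed the threshold between the guide arms, and 12 had the opposite sign. The lowest limma adjusted p was 0.318. The count of genes called between the arms was 0 in each of them, with 170 (filter at 5 TPM) to 662 genes at an unadjusted p below 0.05. The guide changes of HSPH1, HSPA8, HSPB1, HSPE1 and DNAJB1 were above 0 in all of these. HSPH1 ran from 1.12 with a pseudocount of 5 to 1.71 with 0.1 while all libraries were kept, and from 1.06 to 2.04 with 1 left out. The pseudocounts moved SNHG26 to -3.47 (0.1) and -0.64 (5).

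Some values took the opposite sign, and the cause was not tested. With quantile normalization and median ratio scaling the guide changes became -0.067 and -0.041 for HSP90AA1, -0.058 and -0.038 for HSP90AB1, -0.033 and -0.023 for AHSA1, and -0.028 and -0.030 for CLPP. The difference between the days for HSP90AA1 became -0.14 and -0.099, and the day change of HSP90AB1 became -0.10 with quantile normalization. Leaving out each library in turn (1 library in an arm, assumed to vary like the others) gave guide changes from -0.14 to 0.16 for HSP90AA1, -0.058 to 0.084 for HSP90AB1, -0.078 to 0.040 for HSPA4, -0.078 to 0.85 for DNAJA1, -0.15 to 0.30 for HSPD1 and -0.42 to 0.31 for HSPA9. The same ranges were -0.12 to 0.18 for AHSA1, -0.90 to 0.15 for BAG6, -0.17 to 0.45 for CDC37, -0.20 to 0.24 for CLPP, -0.43 to 0.18 for DNAJA2, -0.036 to 0.83 for DNAJC9, -0.064 to 0.54 for HSBP1, -0.27 to 0.48 for HSPA1A and -0.49 to 0.32 for TRAP1. Day changes ran from -0.025 to 0.095 for HSP90AB1, -0.088 to 0.0076 for HSPA4, -0.92 to 0.12 for HSPA8 and -1.55 to 0.38 for HSPH1, the last 2 turning without the control library of day 3. The list medians moved from 0.042 to 0.19 for the members, 0.060 to 0.56 for the heat-inducible genes, 0.10 to 0.23 and -0.097 to 0.23 for HSP90 and HSP70 co-chaperones and -0.079 to 0.046 for the mitochondrial list. The summed level differed by 326 to 717 TPM.

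The 3 genes called between the days, none a member, became 0 with either other pseudocount, no filter, eBayes with no trend, quantile normalization, the replicate block and each library left out. The 8 genes whose guide change differed between the days, none a member, became 14 with a pseudocount of 0.1, 13 with the 5 TPM filter, and 0 with a pseudocount of 5, the replicate block, no filter and eBayes with no trend. As to pairing, libraries of equal number share only their day, and the 2 deviated from their arms with a correlation of 0.0464 over 8274 genes. With the replicate block 0 genes passed between the arms, and 359 were at an unadjusted p below 0.05. The block changed no member's call. Depth limits the low genes, with at most 15.2 reads in the lowest library for HSPH1 and 1.00 for DNAJB2.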
